A study of Mus musculus with 90 samples.

Results

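The genes described here encode the constitutive subunits of the 26S proteasome, the particle that degrades ubiquitin-tagged proteins. They were chosen by name from the deposited counts of the mouse tumour lines YUMM2.1 and CT26: symbols made of Psma, Psmb, Psmc or Psmd and a number, without Psmb5 to Psmb10, and with at least 90 counts summed over the 90 samples. Of 53697 genes in the table, 33 matched the name and 31 met the count minimum. Psmd3 entered with the fewest counts of the 31, 1366 in all, and Psmb11 with 46 counts and Psma8 with 0 counts were left out.

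YUMM2.1 is a mouse melanoma line and CT26 a mouse colon carcinoma line, both grown in culture. Gene expression was read by sequencing transcript 3′ ends (3′ digital gene expression). For each line, 15 groups of 3 samples were compared, 45 samples in all. Control cultures received bovine serum albumin (BSA) and no IFNγ and were collected at 0, 1, 2 and 3 weeks. Naive cultures, at 0 weeks, received 50 IU/mL IFNγ for 2 h or 24 h. The remaining cultures were kept in 50 IU/mL IFNγ continuously for 1, 2 or 3 weeks. They were harvested 2 h or 24 h after a fresh addition of IFNγ (rechallenge) or without one (0 h). The labels describe triplicate experiments and give no genetic change in either line. They do not say whether replicates were passaged separately, so the p-values measure the spread between these samples.

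The proteasome core is a stack of rings, with outer rings of alpha subunits that gate the entry and inner rings of beta subunits, some of which cut the substrate. The regulatory particle caps the core: its base holds a ring of ATPases that unfold the substrate and scaffold subunits that receive ubiquitin, and its lid removes the ubiquitin chain. IFNγ is known to induce 3 alternative catalytic beta subunits, encoded by Psmb8, Psmb9 and Psmb10, which replace the constitutive ones in newly assembled cores and form the immunoproteasome used in antigen presentation. The 31 members comprised core and regulatory subunits. Those of the core were 7 alpha subunits (Psma1 to Psma7) and 4 beta subunits without proteolytic activity (Psmb1 to Psmb4). Those of the regulatory particle were 6 base ATPases (Psmc1 to Psmc6), 3 base scaffold or ubiquitin receptor subunits (Psmd1, Psmd2 and Psmd4) and 8 lid subunits (Psmd3, Psmd6, Psmd7, Psmd8, Psmd11, Psmd12, Psmd13 and Psmd14). The remaining 3 are chaperones that assemble the base (Psmd5, Psmd9 and Psmd10).

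The YUMM2.1 samples held between 274719 and 3161276 counts and the CT26 samples between 295157 and 2205285. Of these, 3 samples had a total below 25% of their line's median: replicate 3 of YUMM2.1 at 3 weeks of IFNγ without rechallenge, and replicate 3 of CT26 at 1 and at 3 weeks of IFNγ without rechallenge. Levels are given as CPM, the counts scaled to a common library size, after TMM normalisation over all 90 samples. On that scale 1 library stood furthest apart for the members, replicate 2 of YUMM2.1 at 3 weeks of IFNγ with 2 h rechallenge. There 20 of the 31 members had their lowest level of the line, with a median shift of -0.49 (log2) against the median sample. Its TMM factor, 1.36, was the highest of the series. Its CT26 counterpart had a shift of -0.24. Other low libraries also recurred under the same labels in both lines, with shifts given for YUMM2.1 and then CT26. Replicate 2 at 1 week with 2 h rechallenge had -0.31 and -0.21. Replicate 3 without rechallenge had -0.21 and -0.14 at 1 week and -0.31 and -0.16 at 3 weeks. Replicate 3 at 3 weeks with 24 h rechallenge had -0.21 and -0.17. The same direction in both lines may thus not be independent. Sox10, a melanocyte lineage factor, was present in YUMM2.1 at a median of 25.7 CPM, whereas the pigment genes Tyr, Tyrp1, Pmel and Mlana had between 0 and 19 counts over 45 samples. The other melanocyte genes examined, Mitf and Dct, were low, with medians of 1.85 and 0.57 CPM in YUMM2.1 and 2.74 and 2.09 CPM in CT26. In CT26 the keratins Krt18 and Krt20 had medians of 17.7 and 56.4 CPM, and the epithelial markers Epcam, Cdh1, Krt8 and Krt19 had between 0 and 4 counts.

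All 31 members passed edgeR's filter on low counts in both lines, which 9589 genes of YUMM2.1 and 8516 of CT26 passed. The members were measured more precisely than most genes: the median SD of log2 CPM among replicates was 0.15 over the members in either line, against 0.42 over all tested genes in YUMM2.1 and 0.40 in CT26. Psmd3, with a median of 17 counts per sample in YUMM2.1 and 13 in CT26, was the least precise member in both lines. Gene models of other loci share the 3′ ends of few members: 5 members had a copy of at least 95% identity over at least 100 of their last 300 transcript bases, and the counts of these copies came to at most 2.38% of the member's counts, for Psmc3, whose neighbour Slc39a13 overlaps it. Exons of 7 members overlap a gene on the opposite strand and those of Psmd1 also one on the same strand, Gm21972, and the strand setting of the counting is not given in the sources used here.

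The first question was whether a first exposure to IFNγ altered the constitutive subunits. At 2 h no member passed the threshold: the quasi-likelihood test of edgeR, with p-values adjusted by Benjamini and Hochberg's method and a threshold of 0.05, called 0 of 31 in YUMM2.1, where 0.24% of all genes were called, and 0 of 31 in CT26, where 0.235% were. No member had an unadjusted p under 0.05 in either line (0 of 31 in each, against 3.63% and 3.64% of all genes), and DESeq2 called 0. The highest log2 fold change at 2 h was 0.15 in YUMM2.1, for the alpha subunit Psma4, and 0.23 in CT26, for the lid subunit Psmd13. The lowest was -0.39 and -0.15, both for Psmd3.

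At 24 h, again 0 of 31 members were called in YUMM2.1 (edgeR; 0.886% of all genes) and 0 of 31 in CT26 (2.04% of all genes), with 1 and 7 members at an unadjusted p under 0.05 (7.02% and 11.4% of all genes). DESeq2 called 0 in both lines. The median log2 fold change was -0.0057 over the 31 members, against 0.019 over all genes, in YUMM2.1. In CT26 it was 0.13 over the 31 members, against -0.022 over all genes, and all 7 alpha subunits had values above 0, from 0.014 to 0.26, of which 6 stayed above 0 with upper-quartile scaling, where the median of all genes was -0.11. The width of the intervals sets what could have been seen: the half-width of the 95% confidence interval spanned a median of 0.25 (log2) per member in either line. In each line the intervals of 30 of 31 members lay within 1 log2 unit of 0, with Psmd3 the exception. A p that missed the threshold does not show that a level stayed the same. In RNA from whole cultures, a change in few cells and a smaller change in all cells cannot be told apart.

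The highest member at 24 h in YUMM2.1 was Psma5, an alpha subunit, at 394, 369 and 409.9 CPM in the controls and 449, 517 and 439 CPM with IFNγ (log2 fold change 0.30, 95% CI 0.073 to 0.52, adjusted p = 0.442). The 3 treated samples lay above the 3 controls. In CT26 the highest was the lid subunit Psmd13, at 91.1, 80.9 and 81.1 CPM in the controls and 119.7, 103 and 113 CPM with IFNγ (log2 fold change 0.42, 95% CI 0.084 to 0.76, adjusted p = 0.274). The lowest members at 24 h were Psmd5 in YUMM2.1, with a log2 fold change of -0.16, and Psmd3 in CT26, with -0.33.

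Genes of the inducible proteasome moved in the same samples. Psmb10, an immunoproteasome subunit, went from 41.2, 49.8 and 62.5 CPM in YUMM2.1 controls to 383, 408 and 368 CPM at 24 h (log2 fold change 2.96, 95% CI 2.66 to 3.26, adjusted p = 9.20e-21), and in CT26 from 81.2, 87.0 and 83.0 CPM to 355, 422 and 417 CPM (log2 fold change 2.27, 95% CI 2.03 to 2.50, adjusted p = 9.46e-20). Psmb9 stood at 1.57, 1.13 and 0 CPM in YUMM2.1 controls and at 65.3, 84.5 and 79.1 CPM after 24 h, and Psmb8 at 0, 1.13 and 0 CPM and 16.6, 24.7 and 27.2 CPM. No fold is given for these 2 in YUMM2.1, since the controls held between 0 and 3 counts. The 3 immunoproteasome genes and the activator subunits Psme1 and Psme2, which form a cap that opens the core without ubiquitin, rose in both lines at 24 h, and none of the 5 overlapped its controls.

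On the log2 scale Psme1 rose by 2.56 in YUMM2.1 (adjusted p = 1.12e-15) and 1.63 in CT26 (adjusted p = 9.36e-12), and Psme2 by 2.48 (adjusted p = 5.89e-21) and 2.27 (adjusted p = 6.25e-21). The catalytic subunits that the immunoproteasome genes replace, Psmb5, Psmb6 and Psmb7, were not called at 24 h in either line (0 of 3 in each, edgeR), nor was any of these 3 a member here. Among 5 assembly factors, Pomp, which matures new cores, rose in CT26 (log2 fold change 0.44, 95% CI 0.19 to 0.68, adjusted p = 0.0462), at 1062, 920.1 and 916 CPM in the controls and 1416, 1262 and 1201 CPM with IFNγ. In the plot of fold changes, the intervals of the 31 members lie around 0 and those of Psmb10, Psme1 and Psme2 lie to the right of all of them.

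**Figure D1:**
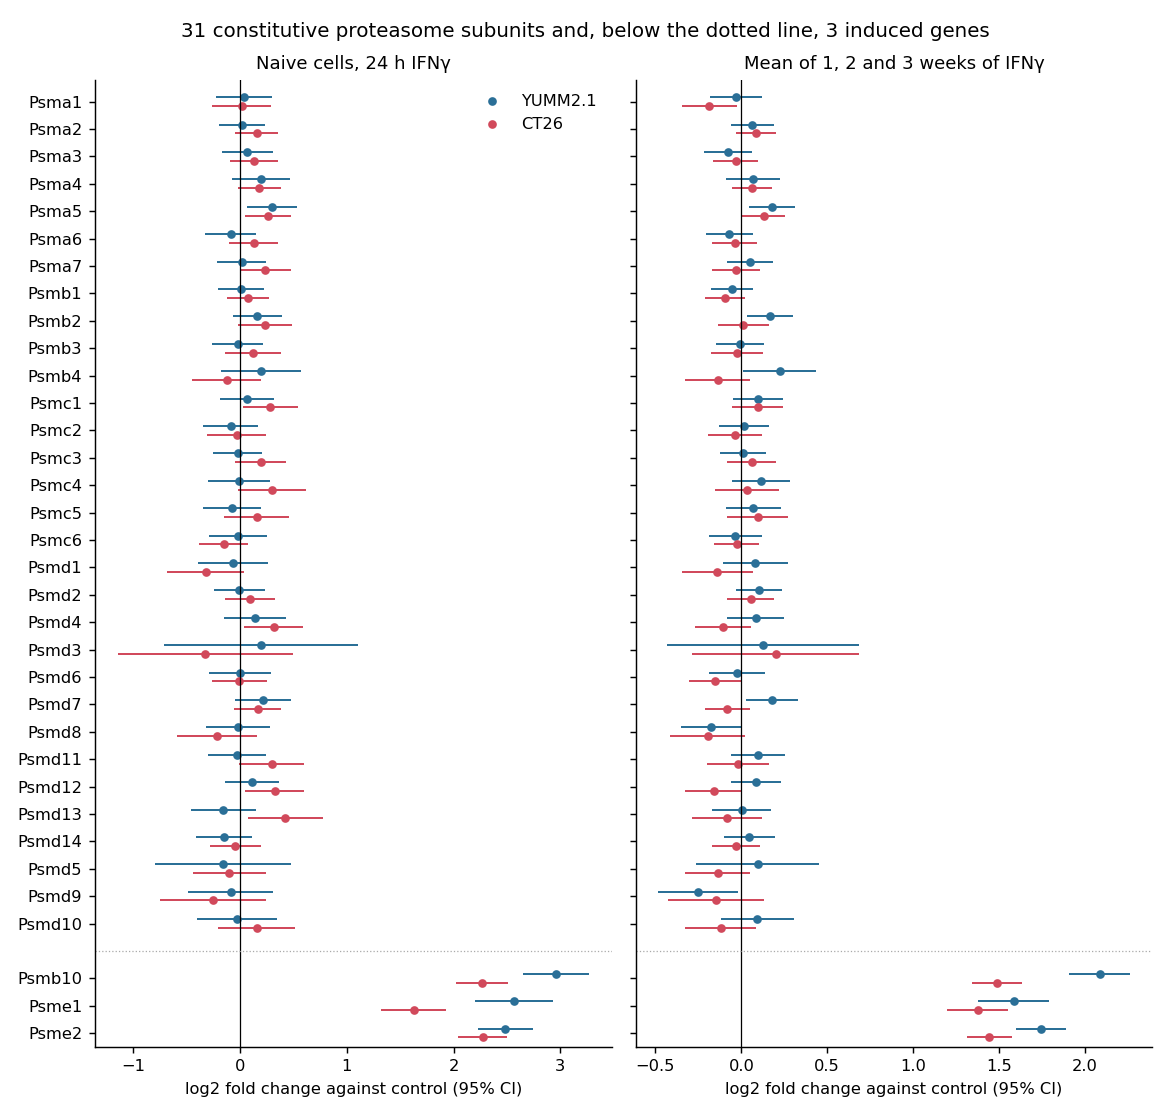
Log2 fold change with its 95% confidence interval for each of the 31 members, ordered by subcomplex, and for Psmb10, Psme1 and Psme2 below the dotted line, in YUMM2.1 (blue) and CT26 (red). The left panel compares naive cells after 24 h of IFNγ with 0-week controls, the right panel the mean of 1, 2 and 3 weeks of IFNγ with the controls of the same weeks; 0 of 31 members passed the test in each of the 4 comparisons shown, and Psmd3 has the widest interval.

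The next question was whether continuous IFNγ, without rechallenge, left a trace on the subunits. In YUMM2.1, edgeR called 0 of 31 members at 1 week (0.73% of all genes), 0 at 2 weeks (1.12%) and 0 at 3 weeks (0.97%), with 0, 2 and 3 members at an unadjusted p under 0.05 (5.94%, 7.19% and 10.54% of all genes) and 0 calls by DESeq2 at each. In CT26 it called 0 at 1 week (0.728% of all genes) and 0 at 3 weeks (7.23%), with 0 and 2 members at an unadjusted p under 0.05 (7.33% and 22.1% of all genes) and 0 calls by DESeq2. At 2 weeks it called 1 of 31 (1.67% of all genes), Psmd12. The share of all genes called at 3 weeks in CT26 was the highest of these 6 comparisons, and the members had no call there. With library totals as the only scaling, 3 members were called at 3 weeks in CT26, all higher, while the median of all genes moved from 0.016 to 0.22 (log2).

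The extremes differed from week to week. In YUMM2.1 the highest log2 fold change was 0.22 for Psmc1 at 1 week, 0.53 for Psmb4 at 2 weeks and 1.28 for Psmd3 at 3 weeks, and the lowest was -0.23 for Psmd8, -0.76 for Psmd3 and -0.37 for Psmd8. In CT26 the highest was 0.19 for Psmc3, 0.32 for Psmd3 and 0.41 for Psmd3, and the lowest was -0.27 for Psmd1, -0.49 for Psmd12 and -0.34 for Psmd13. Psmd3, the member with the fewest counts, gave several of these extremes.

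Psmd12, a lid subunit of the regulatory particle, was the member called at 2 weeks in CT26. It stood at 197, 213 and 181 CPM in the 2-week controls and at 144, 141 and 139 CPM after 2 weeks of IFNγ, a fold of 0.710 (log2 fold change -0.49, 95% CI -0.76 to -0.22, adjusted p = 0.0402). The groups did not overlap. The level was also low in the other 2-week IFNγ groups, at 134, 122 and 140.4 CPM 2 h after rechallenge and 123, 132 and 142 CPM 24 h after it.

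At 3 weeks the level was low with and without IFNγ. The 3-week controls of CT26 stood at 139, 145 and 131 CPM, and the 3-week IFNγ cultures without rechallenge at 141, 130.1 and 105 CPM (log2 fold change -0.098, adjusted p = 0.793). At 0 weeks the controls had 203, 175 and 149.9 CPM and at 1 week 199.6, 179 and 162 CPM. The 3-week controls thus lay below every control of the earlier weeks and overlapped the IFNγ cultures of 3 weeks, and the 2-week controls were the highest of the 4 control groups by mean.

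The call rests on the 2-week samples and on the settings. Over 11 alternative fits the log2 fold change ranged from -0.53 to -0.41 and the adjusted p from 0.0115 to 0.459, and 6 of the 11 called it. The settings that did not were scaling by library totals, a fit without the filter, and leaving out replicate 1, 2 or 3. It would also not pass a minimum log2 fold change of 0.5. In YUMM2.1 Psmd12 went from 189, 171 and 189 CPM in 2-week controls to 218, 215 and 179 CPM with IFNγ (log2 fold change 0.14, adjusted p = 0.929), with samples of the 2 groups overlapping.

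**Figure D2:**
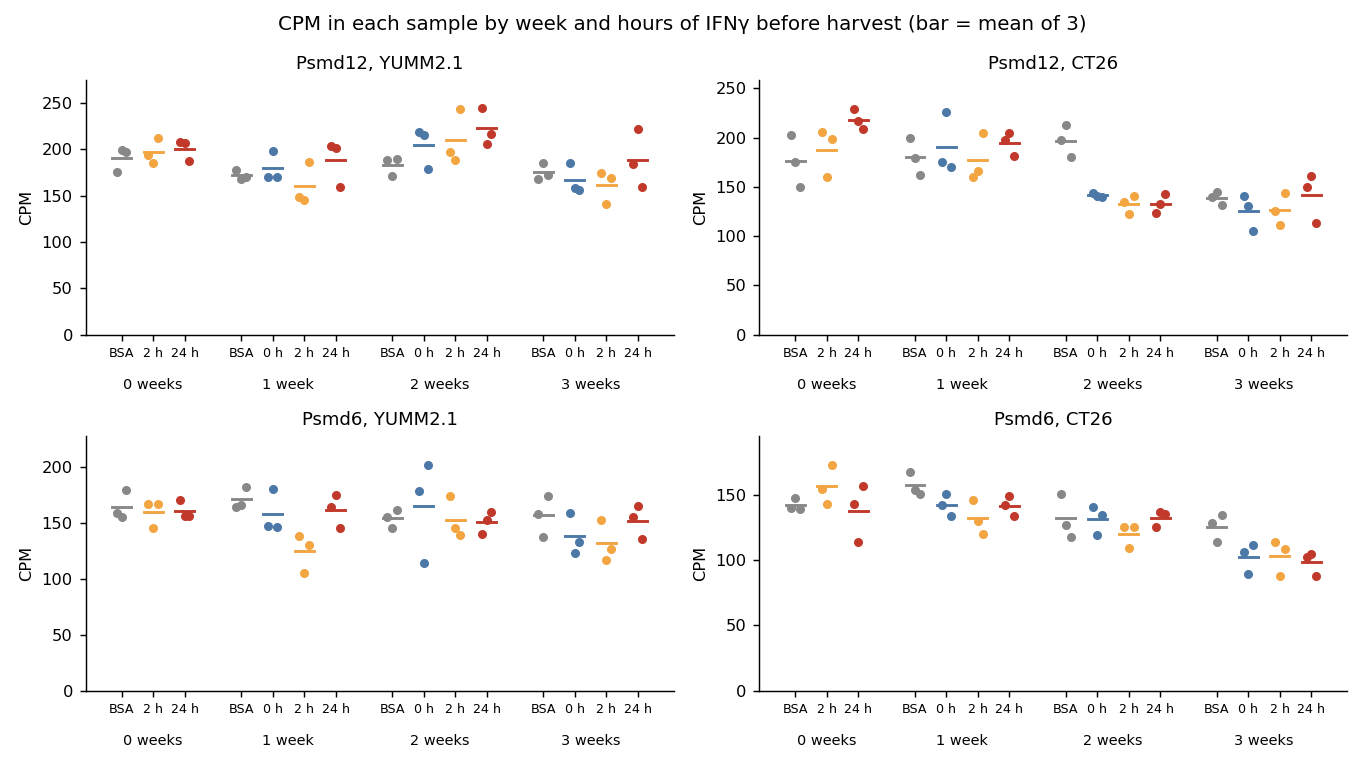
Levels of Psmd12 (upper panels) and Psmd6 (lower panels), 2 lid subunits, in CPM in each of the 45 samples per line. Points are samples and bars the means of 3, grouped by week and by hours of IFNγ before harvest (BSA, grey, are the controls); in CT26 all Psmd12 samples of the 2-week IFNγ cultures lie between 122 and 144 CPM, under the 2-week controls at 181 to 213 CPM, and the 3-week controls lie at 131 to 145 CPM.

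The Psmd12 gene lies on chromosome 11, 107479484 to 107504362, plus strand (GRCm38). Its promoter, from 250 bases before to 50 bases after the RefSeq start (GRCm38.p6), is shown because Psmd12 was the member called under continuous IFNγ, and capitals mark the stretch that reads TGACNNNGC, the antioxidant response element bound by the proteasome gene activator Nfe2l1, on the opposite strand.
Psmd12 promoter (chr11:107479278-107479577, plus strand): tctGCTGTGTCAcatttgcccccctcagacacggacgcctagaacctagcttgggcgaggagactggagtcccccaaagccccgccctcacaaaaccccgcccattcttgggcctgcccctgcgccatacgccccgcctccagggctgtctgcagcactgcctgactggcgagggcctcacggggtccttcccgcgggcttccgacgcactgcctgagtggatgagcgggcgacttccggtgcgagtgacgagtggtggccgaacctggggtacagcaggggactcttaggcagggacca
This window held neither GAAANNGAA, the core of the interferon-stimulated response element (ISRE), nor TTCNNNGAA, the gamma-activated site (GAS).

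Averaged over 1, 2 and 3 weeks, edgeR called 0 of 31 members in YUMM2.1 (2.95% of all genes) and 0 of 31 in CT26 (8.14%), with 6 and 4 members at an unadjusted p under 0.05 (13.2% and 22.4% of all genes). DESeq2 called 2 in YUMM2.1, Psma5 and Psmb2, and 1 in CT26, Psma5. The median log2 fold change was 0.069 over the 31 members, against 0.0070 over all genes, in YUMM2.1, with 22 of 31 members above 0. In CT26 it was -0.034 over the 31 members, against 0.0083 over all genes, with 10 of 31 above 0. Intervals were narrower than for single weeks, with a median half-width of 0.15 in either line, and all 31 lay within 1 log2 unit of 0 in both lines.

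The highest member of this average was the beta subunit Psmb4 in YUMM2.1 (log2 fold change 0.22, 95% CI 0.017 to 0.43, adjusted p = 0.318) and Psmd3 in CT26 (log2 fold change 0.20, 95% CI -0.28 to 0.68, adjusted p = 0.681). The lowest were the base chaperone Psmd9 (log2 fold change -0.25, 95% CI -0.48 to -0.023, adjusted p = 0.305) and the lid subunit Psmd8 (log2 fold change -0.20, 95% CI -0.41 to 0.017, adjusted p = 0.269). In the same average Psmb10 rose by 2.09 in YUMM2.1 and 1.49 in CT26, Psme1 by 1.58 and 1.38, and Psme2 by 1.75 and 1.44 (log2, adjusted p from 4.46e-25 to 4.06e-17). Library totals as the only scaling moved the median of all genes in CT26 from 0.0083 to 0.13, and 5 members were then called there, all higher: Psma2, Psma4, Psma5, Psmc1 and Psmc3. In YUMM2.1 that scaling called Psma5, Psmb2 and Psmd7, all higher. Without the 3 samples of low depth, Psma5 was called in CT26 (log2 fold change 0.18, adjusted p = 0.0394).

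Rechallenge compared cultures given fresh IFNγ after 1 to 3 weeks of exposure with cultures left without it. After 2 h, edgeR called 0 of 31 members in YUMM2.1 (2.82% of all genes) and 0 of 31 in CT26 (0.986%), with 2 and 1 members at an unadjusted p under 0.05 (15.2% and 11.4% of all genes). DESeq2 called 0 in both. Most estimates were negative: 25 of 31 in each line, with medians of -0.076 and -0.045 against 0.0092 and 0.010 over all genes. All 6 base ATPases lay below 0 in YUMM2.1 and in CT26, with log2 fold changes of -0.14 to -0.092 in the former and -0.17 to -0.053 in the latter and no call among them. Without the YUMM2.1 library that stood apart, which belongs to these 2 h groups, the median over the members was -0.039, with Psma4 at -0.15 and Psmd3 at 0.12, again with 0 calls. The 2 h groups of CT26 also hold low libraries of replicate 2, with median shifts of -0.21 at 1 week and -0.24 at 3 weeks. In YUMM2.1, replicate 2 at 1 week was low as well, at -0.31. These were not left out on their own. The groups without rechallenge hold low libraries of replicate 3 in both lines. The shared direction of the 2 lines at 2 h may therefore not be independent. The highest member was Psmd3 in both lines (0.38 in YUMM2.1 and 0.27 in CT26), and the lowest was Psma4 in YUMM2.1 (-0.20) and Psmc4 in CT26 (-0.17).

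Leaving out replicate 3 of every group gave 2 calls in each line at 2 h, Psmc4 and Psmd10 in YUMM2.1 and Psmc1 and Psmc4 in CT26, all lower, with log2 fold changes between -0.34 and -0.26 and adjusted p between 0.0162 and 0.047. The calls over all genes also rose under that setting, to 327 in YUMM2.1 (270 with all samples) and 367 in CT26 (84). In both lines that setting dropped the low libraries of replicate 3 without rechallenge and kept the low 2 h libraries of replicate 2. Whether the 2 calls in each line follow from this was not tested. After 24 h, edgeR called 0 of 31 in YUMM2.1 (1.06% of all genes) and 0 of 31 in CT26 (1.34%), with 1 and 2 members at an unadjusted p under 0.05 (7.84% and 8.08% of all genes) and 0 calls by DESeq2 in both lines. The highest members at 24 h were Psma5 in YUMM2.1 (log2 fold change 0.20, 95% CI 0.066 to 0.32, adjusted p = 0.206) and Psmd3 in CT26 (log2 fold change 0.27, 95% CI -0.20 to 0.74, adjusted p = 0.898), and the lowest Psmb4 (-0.18) and Psmd1 (-0.11). Psmb8, Psmb9, Psmb10, Psme1 and Psme2 were higher at 24 h in both lines, with Psmb10 at 0.82 in YUMM2.1 and 0.80 in CT26.

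A further comparison was chosen after the data were seen: the mean of the 4 groups harvested 24 h after an addition of IFNγ, at 0, 1, 2 and 3 weeks, against the mean of the 4 control groups, which gives 12 samples on each side. It shares its samples with the comparisons above and is no independent support for them. In YUMM2.1, 3 of 31 members were called, all higher, where 8.12% of all genes were called. In CT26, 4 of 31 were called, 3 higher and 1 lower, where 10.8% of all genes were called. Psma5 was higher in both lines, Psmb2 and Psmd7 in YUMM2.1, Psma4 and Psma2 in CT26, and Psmd1 was lower in CT26. The calls of a gene in 1 line were not tested against the other line. Without the YUMM2.1 library that stood apart, 4 members were called there, with Psmd12 added (log2 fold change 0.18, adjusted p = 0.0436).

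Psma5, an alpha subunit of the core, had the largest change of the members in both lines, and the lowest value in YUMM2.1 was that of the alpha subunit Psma6 (log2 fold change -0.11, adjusted p = 0.261). In YUMM2.1 its controls lay at 363 to 437 CPM (median 406) and the 24 h samples at 366 to 577 CPM (median 510.2). This was a fold of 1.28 (log2 fold change 0.35, 95% CI 0.24 to 0.47, adjusted p = 5.32e-06), with 11 of 12 treated samples above all 12 controls. In CT26 the controls lay at 775 to 862 CPM (median 829) and the 24 h samples at 869.9 to 1159 CPM (median 1034), a fold of 1.22 (log2 fold change 0.29, 95% CI 0.19 to 0.39, adjusted p = 3.25e-05), with 12 of 12 above all 12 controls. All 11 alternative fits called it in each line, with log2 fold changes of 0.30 to 0.41 in YUMM2.1 and 0.26 to 0.38 in CT26, and it was not called in either line when a log2 fold change of at least 0.5 was also required.

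By week, Psma5 in YUMM2.1 stood at 382, 437 and 406 CPM in the 1-week controls and 539.9, 563 and 503 CPM 24 h after rechallenge, and at 411, 363 and 384 CPM and 577, 573 and 572 CPM at 2 weeks. At 3 weeks it stood at 405, 422 and 426 CPM and 459.6, 478 and 366 CPM. The treated samples lay above the controls of the same week at 0, 1 and 2 weeks, and at 3 weeks replicate 3 lay below all 3 controls. In that library the median shift over all 31 members was -0.21 (log2), with a TMM factor of 1.19.

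In CT26 Psma5 stood at 825, 862 and 775 CPM in naive controls and 1019, 887 and 1006 CPM after 24 h, and at 790.5, 831 and 846 CPM and 1069, 1159 and 888 CPM at 1 week. It stood at 839, 803 and 828 CPM and 1049.9, 1051 and 1085 CPM at 2 weeks and at 861, 800.1 and 829 CPM and 939, 1070.0 and 869.9 CPM at 3 weeks. The groups did not overlap in any of the 4 weeks. The ratio of the means, 24 h over control, was 1.18, 1.26, 1.29 and 1.16 at 0, 1, 2 and 3 weeks in CT26 and 1.20, 1.31, 1.49 and 1.04 in YUMM2.1. The naive comparison alone passed the threshold in neither line.

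**Figure D3:**
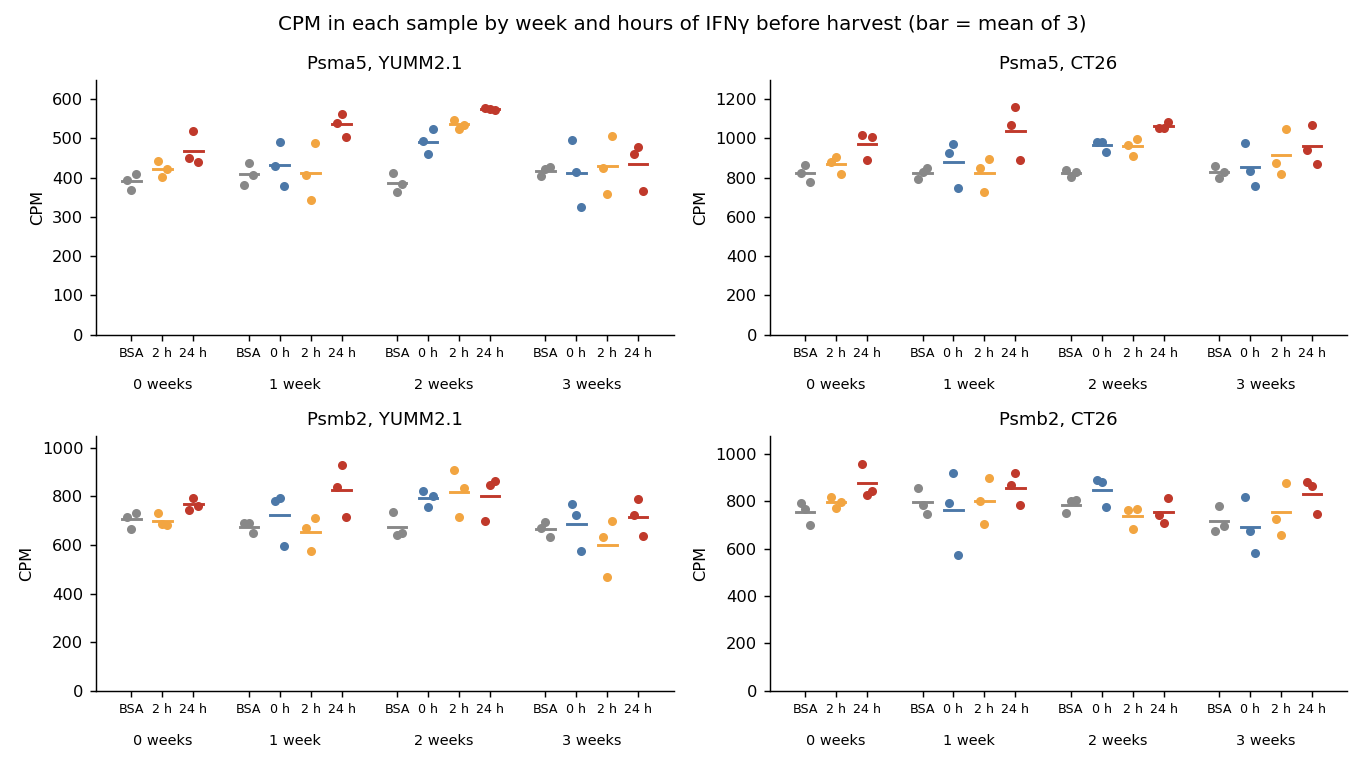
Levels of Psma5 (upper panels) and Psmb2 (lower panels) in CPM in each of the 45 samples per line. Points are samples and bars the means of 3, grouped by week and by hours of IFNγ before harvest (BSA, grey, are the controls); Psma5 lies at 775 to 862 CPM in the 12 CT26 controls and at 869.9 to 1159 CPM in the 12 samples taken 24 h after IFNγ.

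The Psma5 gene lies on chromosome 3, 108256926 to 108279974, plus strand (GRCm38), and its promoter, over the same window as above, is shown as that of the member with the largest change. It held none of the TGACNNNGC, GAAANNGAA and TTCNNNGAA motifs on either strand and is therefore all in lower case. The promoter of Psmb8, an immunoproteasome gene induced in the same samples, is shown for comparison with its match to TTCNNNGAA in capitals. That match is not typical of the induced genes. Among 6 promoters matched to Psmb8, Psmb9, Psmb10, Psme1 or Psme2, 1 held TTCNNNGAA (Psmb8) and 1 held GAAANNGAA (Psme1).
Psma5 promoter (chr3:108256676-108256975, plus strand): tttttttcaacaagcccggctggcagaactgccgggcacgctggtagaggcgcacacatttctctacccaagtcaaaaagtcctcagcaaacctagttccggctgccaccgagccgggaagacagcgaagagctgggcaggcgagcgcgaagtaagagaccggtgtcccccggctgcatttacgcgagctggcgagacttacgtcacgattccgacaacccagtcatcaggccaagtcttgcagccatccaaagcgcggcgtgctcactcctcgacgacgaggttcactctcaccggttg
Psmb8 promoter (chr17:34197945-34198244, plus strand): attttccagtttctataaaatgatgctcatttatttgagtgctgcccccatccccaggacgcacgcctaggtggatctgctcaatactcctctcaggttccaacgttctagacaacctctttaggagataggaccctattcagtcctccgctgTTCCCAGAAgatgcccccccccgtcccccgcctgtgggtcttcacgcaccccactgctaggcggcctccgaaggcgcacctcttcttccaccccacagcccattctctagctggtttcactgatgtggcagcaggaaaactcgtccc
A match, or its absence from this window, says nothing about whether a factor binds.

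Psmb2, a beta subunit, lay at 633 to 734 CPM (median 679) in the YUMM2.1 controls and at 638 to 929.9 CPM (median 775) in the 24 h samples (log2 fold change 0.23, 95% CI 0.12 to 0.34, adjusted p = 0.00399), with 8 of 12 above all controls. Psmd7, a lid subunit, lay at 257 to 312 CPM (median 275) and at 242 to 365 CPM (median 305) (log2 fold change 0.20, 95% CI 0.071 to 0.32, adjusted p = 0.0384), with 5 of 12 above and 2 below all controls. The call of Psmd7 was absent with upper-quartile scaling, without the filter on low counts and when any 1 replicate number was left out, and that of Psmb2 when replicate 1 or 2 was. In CT26, Psmb2 had a log2 fold change of 0.12 (adjusted p = 0.207) and Psmd7 of -0.057 (adjusted p = 0.559).

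In CT26, the alpha subunit Psma4 lay at 349 to 456 CPM (median 408) in the controls and at 382 to 522 CPM (median 442) in the 24 h samples (log2 fold change 0.17, 95% CI 0.077 to 0.27, adjusted p = 0.0104), with 5 of 12 above all controls. The alpha subunit Psma2 lay at 576 to 707 CPM (median 619) and at 634 to 771 CPM (median 693) (log2 fold change 0.16, 95% CI 0.065 to 0.26, adjusted p = 0.0187), with 6 of 12 above all controls. The scaffold subunit Psmd1 lay at 78.4 to 124 CPM (median 92.8) and at 57.7 to 91.5 CPM (median 81.7) (log2 fold change -0.27, 95% CI -0.44 to -0.10, adjusted p = 0.0272), with 5 of 12 below all controls. Psma4 and Psma2 were not called without the filter on low counts or without replicate 1 or 2, and Psmd1 was not called by DESeq2, with library totals, without the filter or without replicate 1, 2 or 3. Psmd1 overlaps Gm21972, which had 0 counts.

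Library totals as the only scaling gave 7 calls in YUMM2.1 and 10 in CT26 in this comparison, all higher, and raised the median of all genes to 0.065 in YUMM2.1 (0.012 with TMM) and 0.11 in CT26 (0.011 with TMM). Pomp also rose, by 0.38 in YUMM2.1 (adjusted p = 9.13e-05) and 0.32 in CT26 (adjusted p = 1.28e-04). Of the catalytic counterparts, 0 of 3 were called in YUMM2.1 and 2 of 3 in CT26: Psmb5 was lower (log2 fold change -0.39, 95% CI -0.59 to -0.19, adjusted p = 0.00458) and Psmb6 higher (log2 fold change 0.18, 95% CI 0.060 to 0.29, adjusted p = 0.0374). The immunoproteasome genes were called in both lines, with Psmb10 at 2.92 in YUMM2.1 and 2.29 in CT26.

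As a measure that does not depend on the TMM factors, the counts of the 31 members were summed as a percentage of all counts of a sample. In YUMM2.1 this share was 1.02% to 1.12% (median 1.07%) over the 12 controls. Over the 12 samples taken 24 h after IFNγ it was 1.08% to 1.24% (median 1.16%), and 11 of these lay above all controls. In CT26 it was 0.867% to 0.951% (median 0.906%) and 0.932% to 1.08% (median 1.02%), again with 11 of 12 above all controls. After 2 h, 5 of 12 samples in YUMM2.1 and 4 of 12 in CT26 lay above all controls, and after 1 to 3 weeks without rechallenge 7 of 9 and 6 of 9.

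These shares are of raw counts, with 95% Wilson intervals of at most 0.039 percentage points on either side in YUMM2.1 and 0.034 in CT26, which cover counting error only. A share rises when other genes take fewer counts: on the scale of library totals the median of all genes in the comparison of 24 h samples with controls was 0.065 in YUMM2.1 and 0.11 in CT26, beside 0.11 and 0.10 over the members. After TMM normalisation the members' medians were 0.056 and 0.0082, beside 0.012 and 0.011 over all genes. The plot of shares gives each sample.

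**Figure D4:**
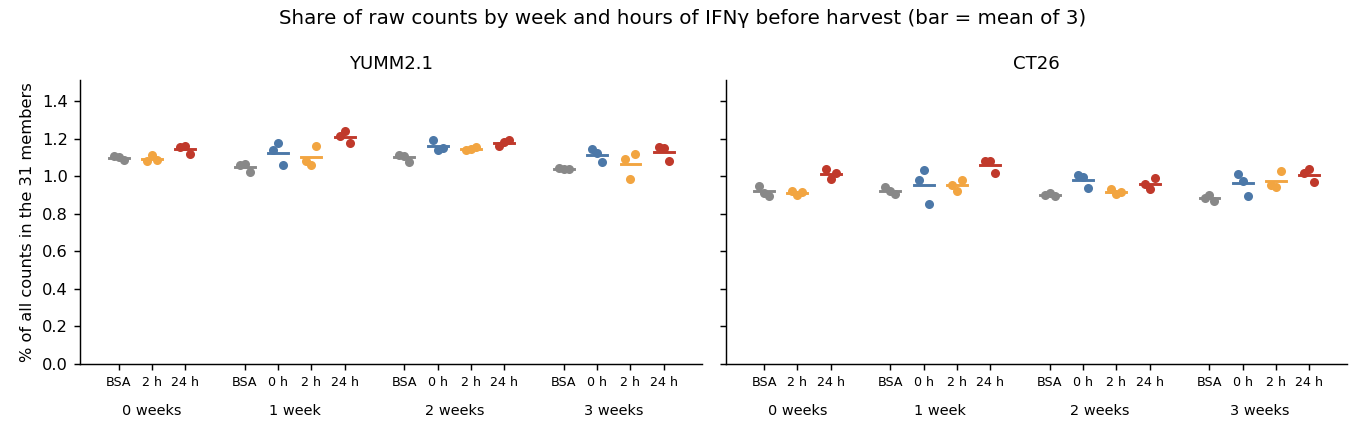
Percentage of all raw counts of a sample that fell on the 31 members, in YUMM2.1 (left) and CT26 (right). Points are samples and bars the means of 3, grouped by week and by hours of IFNγ before harvest (BSA, grey, are the controls); the samples taken 24 h after IFNγ reach 1.24% in YUMM2.1, where the controls end at 1.12%, and 1.08% in CT26, where they end at 0.951%.

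A test for any difference among the 15 groups of a line, which asks for no direction, called 3 of 31 members in YUMM2.1 (edgeR; 14.3% of all genes), namely Psma5, Psmb2 and Psmd11. In CT26 it called 7 of 31 (16.8% of all genes), namely Psmd12, Psmd6, Psmd7, Psmd4, Psma4, Psma5 and Psmd11. The smallest adjusted p was 1.86e-04 for Psma5 in YUMM2.1 and 3.54e-06 for Psmd12 in CT26. The extreme groups named next were picked by their means and are a description. Group means of Psmd12 in CT26 ran from 125 ± 18.6 CPM (mean ± SD, n = 3) in 3-week IFNγ cultures without rechallenge to 218 ± 10.2 CPM in naive cells 24 h after IFNγ.

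Of the 7 genes in CT26, 4 encode lid subunits and 1 a ubiquitin receptor of the base. The lid subunit Psmd6 had group means from 98.3 ± 9.14 CPM (mean ± SD, n = 3) in 3-week IFNγ cultures 24 h after rechallenge to 157 ± 8.81 CPM in 1-week controls (adjusted p = 2.30e-04). Psmd7 ran from 320.2 ± 35.0 CPM (mean ± SD, n = 3) in 3-week IFNγ cultures 2 h after rechallenge to 444 ± 40.1 CPM in 1-week controls (adjusted p = 5.43e-04). The ubiquitin receptor Psmd4 ran from 219 ± 34.6 CPM (mean ± SD, n = 3) in 3-week IFNγ cultures 2 h after rechallenge to 325 ± 35.5 CPM in 1-week IFNγ cultures 24 h after rechallenge (adjusted p = 0.00139). Psmd12, Psmd6, Psmd7, Psmd4 and Psmd11 all had their lowest group mean of CT26 at 3 weeks of IFNγ, as did 20 of the 31 members in all. The same held for 18 of the 31 in YUMM2.1, where these groups include the library that stood apart and other low ones of replicate 3. The share over all genes was not counted. These group means are on the TMM scale. With library totals, the members' median log2 fold change at 3 weeks without rechallenge in CT26 was 0.11, against -0.098 with TMM. Over all genes it was 0.22 and 0.016, in that order. The 3-week IFNγ groups of CT26 also hold low libraries, with median shifts of the members down to -0.24 (log2), and 1 sample of low depth.

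Psmd6 in CT26 stood at 140.1, 148 and 139 CPM in 0-week controls, at 128, 114 and 135 CPM in 3-week controls and at 106, 89.5 and 112 CPM after 3 weeks of IFNγ. The 3-week IFNγ samples lay below all 3-week controls, and the comparison at 3 weeks did not pass the threshold (log2 fold change -0.32, adjusted p = 0.136). Psma4 in CT26 ran from 374 ± 22.6 CPM (mean ± SD, n = 3) in 0-week controls to 511 ± 10.2 CPM in 2-week IFNγ cultures 24 h after rechallenge (adjusted p = 0.0153). The lid subunit Psmd11 ran from 123 ± 20.2 CPM (mean ± SD, n = 3) in 3-week IFNγ cultures without rechallenge to 202 ± 16.3 CPM in naive cells 24 h after IFNγ in CT26 (adjusted p = 0.0252). In YUMM2.1 it ran from 229.9 ± 29.9 CPM (mean ± SD, n = 3) in 3-week IFNγ cultures 2 h after rechallenge to 331 ± 36.6 CPM in 2-week IFNγ cultures 2 h after rechallenge (adjusted p = 0.0383). Without the YUMM2.1 library that stood apart, the 3 calls of YUMM2.1 were the same genes. Leaving out replicate 1 left 0 calls in YUMM2.1 and 1 in CT26, Psmd12.

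The BSA controls themselves spanned 3 weeks in culture. Comparing 3-week with 0-week controls, edgeR called 0 of 31 members in YUMM2.1 (0.521% of all genes) and 0 of 31 in CT26 (0.916%), with 4 members in each at an unadjusted p under 0.05 (8.33% and 12.04% of all genes). DESeq2 called 0 in both. In YUMM2.1 the highest was Psmb4 (log2 fold change 0.42, 95% CI 0.077 to 0.76, adjusted p = 0.43) and the lowest Psmd3 (a fold of 0.499, 95% CI of the log2 fold change -1.92 to -0.087, adjusted p = 0.542). In CT26 the highest was Psmd13, at 91.1, 80.9 and 81.1 CPM in 0-week and 113, 122 and 108 CPM in 3-week controls (log2 fold change 0.46, 95% CI 0.15 to 0.78, adjusted p = 0.169), without overlap, and the lowest Psmd3 (-0.42). Psmd12 had -0.32 (adjusted p = 0.31). When the 2 compared groups alone were fitted, 1 member was called in each line, Psmc5 lower in YUMM2.1 and Psmd13 higher in CT26. In CT26 the activator subunit Psme2 was higher in the 3-week controls (log2 fold change 0.44, adjusted p = 0.0249).

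The lines themselves differed in the levels of these subunits. The test compared the mean of the control groups of each line and left out the IFNγ groups. It called 20 of 31 members, 12 higher and 8 lower in YUMM2.1. This was a share of 64.5% for the members, against 69% of all 10339 genes tested over both lines. The split depends on scaling: it was 22 higher and 5 lower with library totals, 7 and 11 with upper-quartile scaling, 7 and 10 without the filter on low counts and 9 and 10 with DESeq2. The median log2 ratio of all genes was 0.20 with TMM, 0.40 with library totals and 0.063 with upper-quartile scaling. DESeq2 called 19, and 12 of the 20 members were called under each of 11 alternative fits, 7 higher and 5 lower in YUMM2.1. A minimum log2 ratio of 0.5 left 9 of the 20. The lines differ in tissue of origin and mouse strain, and these and any separate handling of the lines cannot be told apart.

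Higher in YUMM2.1 were first the ATPases of the base. For the line comparison, here and below, CPM ranges, medians and counts of samples cover all samples of a line, with and without IFNγ. The log2 ratios, their intervals and adjusted p-values compare the controls alone. Psmc5 lay at 166 to 350.1 CPM (median 279) over the 45 YUMM2.1 samples and at 101 to 180.1 CPM (median 143) over the 45 CT26 samples (log2 ratio 1.03, 95% CI 0.88 to 1.17, adjusted p = 3.52e-22), with 44 of 45 YUMM2.1 samples above every CT26 sample. Psmc1 lay at 306 to 632 CPM (median 500.2) and at 232 to 374 CPM (median 297) (log2 ratio 0.75, 95% CI 0.62 to 0.87, adjusted p = 2.72e-18), again with 44 of 45 above. Psmc3 had 0.64 and Psmc2 0.42 (log2 ratio), and all 6 ATPases had ratios above 0, of which 4 were called, while Psmc4 and Psmc6 were below 0 with upper-quartile scaling or DESeq2's size factors.

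The lid subunit Psmd11 lay at 197 to 359 CPM (median 273) in YUMM2.1 and at 101 to 221 CPM (median 157) in CT26 (log2 ratio 0.72, 95% CI 0.58 to 0.85, adjusted p = 3.37e-15), with 41 of 45 YUMM2.1 samples above every CT26 sample. The beta subunit Psmb3 had a log2 ratio of 0.51, with 41 of 45 above. These 5, Psmc5, Psmc1, Psmd11, Psmc3 and Psmb3, had the 5 highest ratios.

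Lower in YUMM2.1 was first Psmd5, a chaperone that holds the base before it joins the core, which lay at 3.71 to 26.3 CPM (median 19.0) in YUMM2.1 and at 36.2 to 60.0 CPM (median 46.9) in CT26 (log2 ratio -1.45, 95% CI -1.67 to -1.24, adjusted p = 1.30e-20). All 45 YUMM2.1 samples lay below all 45 CT26 samples. Psma5 lay at 325 to 577 CPM (median 437) and at 729 to 1159 CPM (median 887) (log2 ratio -1.04, 95% CI -1.16 to -0.92, adjusted p = 2.29e-27), also without overlap. Psmb4 (log2 ratio -0.81, 95% CI -0.97 to -0.65, adjusted p = 1.30e-14), Psmd7 (-0.53) and Psmd14 (-0.43), the lid's deubiquitinating subunit, followed, each with some overlap between the lines.

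The 7 alpha subunits thus included 2 called higher in YUMM2.1 (Psma1 and Psma6), 2 called lower (Psma4 and Psma5) and 3 with no call. Of 11 alternative fits, 4 called Psma1, 6 Psma6, 10 Psma4 and 11 Psma5, while 2 called Psma2, 5 Psma3 and 6 Psma7. All 4 beta subunits were called, Psmb1 and Psmb3 higher and Psmb2 and Psmb4 lower, with the log2 ratio of Psmb2 at -0.16 with TMM and 0.040 with library totals. Psmd5 lies on chromosome 2, 34849734 to 34874968, minus strand and Psmc5 on chromosome 11, 106256154 to 106263120, plus strand (GRCm38), and the 31 members lie on 15 chromosomes.

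Whether the 2 lines responded differently was tested directly as the difference of their log2 fold changes. For naive cells at 24 h, edgeR called 0 of 31 members (0.087% of all genes), with 1 member at an unadjusted p under 0.05 (8.20% of all genes) and 0 calls by DESeq2. The highest difference, YUMM2.1 minus CT26, was 0.50 for Psmd3 and the lowest -0.61 for Psmd13. For the average of 1 to 3 weeks it also called 0 of 31 (0.184% of all genes), with 3 members at an unadjusted p under 0.05 (6.91% of all genes) and 0 calls by DESeq2. The values ran from -0.13 for Psmd9 to 0.33 for Psmb4 (difference 0.33, 95% CI 0.059 to 0.61, adjusted p = 0.577).

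Other genes of the pathway were followed in 7 lists, of which 38 of 39 listed genes were in the table. The immunoproteasome list (Psmb8, Psmb9 and Psmb10) had 3 of 3 higher in each comparison of IFNγ with control at 24 h, 1, 2 and 3 weeks in both lines, and 0 of 3 called at 2 h in naive cells. Of the activators and inhibitor (Psme1, Psme2, Psme3, Psme4 and Psmf1), Psme1 and Psme2 were higher in those same comparisons and the other 3 were not called. The catalytic counterparts had 1 of 3 called over 1 to 3 weeks in CT26, Psmb5, lower (log2 fold change -0.39, 95% CI -0.63 to -0.16, adjusted p = 0.0278), and 0 of 3 in YUMM2.1. The 5 assembly factors had Pomp as their single call among the IFNγ comparisons with control of single times and of 1 to 3 weeks.

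Among genes of ubiquitin supply, over 1 to 3 weeks, Rps27a, which encodes a ubiquitin-ribosomal fusion protein, was lower in YUMM2.1 (log2 fold change -0.39, 95% CI -0.59 to -0.20, adjusted p = 0.0112) and in CT26 (log2 fold change -0.34, 95% CI -0.52 to -0.16, adjusted p = 0.00943). Uba1, the main ubiquitin-activating enzyme, was higher 2 h after rechallenge in YUMM2.1 (log2 fold change 0.38, 95% CI 0.17 to 0.58, adjusted p = 0.0263). Of the associated factors, 12 passed the filter in YUMM2.1 and 11 in the other line, and Sem1, a small lid component, was lower over 1 to 3 weeks in CT26 (log2 fold change -0.20, 95% CI -0.31 to -0.082, adjusted p = 0.0224). Of the 5 regulators, which include Nfe2l1 and its processing factors Ddi2 and Ngly1 and of which at least 4 were tested in each line, 0 were called in the IFNγ comparisons with control of single times and of 1 to 3 weeks. At 24 h in all weeks Ngly1 was lower in YUMM2.1 (log2 fold change -0.65, 95% CI -1.05 to -0.25, adjusted p = 0.0323). In that comparison the ubiquitin gene Ubb (0.31, adjusted p = 3.62e-04) and the proteasome adaptor Ecpas (0.63, adjusted p = 0.0498) were higher in YUMM2.1, where Rps27a was lower (-0.34, adjusted p = 0.00505). In CT26, Rps27a was lower (-0.31, adjusted p = 0.00399). At 3 weeks in CT26, Rps27a was also lower (log2 fold change -0.53, 95% CI -0.84 to -0.22, adjusted p = 0.0263).

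Promoters of 250 bases before to 50 after the RefSeq start were matched by symbol for 26 of the 31 members (28 promoters in all). Psmb1, Psmb2, Psmc3, Psmd3 and Psmd7 had no entry. Motifs were searched on both strands, TTCNNNGAA reading the same on each, and matches of different motifs could overlap. TGACNNNGC was present in 3 of 28 member promoters (Psmc6, Psmd9 and Psmd12), or 10.7%, and in 12.4% of 32851 promoters of all genes. GAAANNGAA was present in 5 of 28 (Psmb3, Psmb4, Psmc2, Psmd4 and Psmd9), or 17.9%, against 8.56%, and TTCNNNGAA in 1 of 28 (Psmd2), or 3.57%, against 8.30%. The general promoter motifs CCAAT and GGGCGG were present in 11 and 17 of 28, or 39.3% and 60.7%, against 37.4% and 35.7% of all promoters. Of the members called in a comparison with IFNγ, Psma5, Psmb2, Psmd7, Psma2, Psma4, Psmd1 and Psmd12, none with an entry matched GAAANNGAA or TTCNNNGAA, Psmb2 and Psmd7 being without one.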

How the data were processed

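The authors deposited raw counts per gene for 90 samples of YUMM2.1 and CT26, made by 3′ digital gene expression. The submitters' processing notes name Salmon 0.13.1 and the mm10 build without giving their roles, and the methods name tximport for import. The annotation, the strand setting and the use of molecular identifiers are not given in the sources used here. The methods state that outlier samples were discarded, without naming them, and all 90 were kept here. No column of values was left unused (0), and 53668 of 53697 identifiers were given a symbol.

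Counts were analysed in R 4.3.3 with edgeR 4.0.16 (TMM factors, filterByExpr, glmQLFit and glmQLFTest), with 1 coefficient per group. Each line was fitted over its 45 samples (9589 genes in YUMM2.1 and 8516 in CT26), and comparisons between lines over 90 samples (10339 genes). A call is a Benjamini-Hochberg adjusted p under 0.05 over all genes tested. Log2 CPM used a prior count of 2. Total counts set the precision, from 274719 to 3161276 per sample, and intervals of shares cover counting error only. DESeq2 1.42.0 and limma 3.58.1 (a dependency of edgeR), python 3.11.15, pandas 2.3.3, matplotlib 3.10.9 and blastn 2.17.0, for near-identical transcript ends, were also used. Promoters are from RefSeq (GRCm38.p6), gene positions from GENCODE (GRCm38).

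The members and lists were chosen with earlier results of these data known, and some listed genes are not reported here. For members called in a comparison of IFNγ with control, values are given in every sample or, over 12 samples, as the lowest, median and highest. Fold changes are given for the highest and lowest member of each comparison and the 5 largest line differences in each direction. Psmd6 was added to a figure after its values were seen. Alternatives were DESeq2, library totals, upper-quartile factors, no filter on low counts, fits of the compared groups alone, a block for the replicate number, each replicate number left out in turn, samples of low depth left out, a minimum log2 fold change of 0.5 for a call and a prior count of 0.5. Leaving out the library with the lowest member levels was added after the data were seen. The other low libraries were not left out as a set. Replicate numbers were checked for pairing by the correlation of deviations from group means, which averaged -0.0010 over 315 pairs in YUMM2.1 and 0.0080 in CT26, so the samples were not treated as paired. This mean is taken within a line over all groups and cannot show sharing between the lines or within single weeks. Low libraries recurred under the same labels in both lines, and whether the lines shared handling was not tested.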

Additional observations from a re-analysis of the deposited data

Results flagged for a closer look

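In the average of 1 to 3 weeks of IFNγ, the response of the immunoproteasome genes differed between the lines, tested by edgeR as the difference of log2 fold changes, YUMM2.1 minus CT26. The difference was 3.11 for Psmb8 (adjusted p = 4.28e-04), 1.65 for Psmb9 (adjusted p = 0.0142) and 0.57 for Psmb10 (adjusted p = 0.00205). The controls of YUMM2.1 at 1 to 3 weeks held at most 1.49 CPM of Psmb8 and 2.30 CPM of Psmb9, so the fitted values of these 2 genes depend on the prior count and give no size. Psmb10 had 38.8 to 59.5 CPM in those controls and 152 to 303 CPM with IFNγ in YUMM2.1, against 81.1 to 99.8 CPM and 179.6 to 419.6 CPM in CT26. For the 31 constitutive members, 0 of 31 differed in this test.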

How the results depend on the processing

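Of 294 counts of members called under another setting, 257 stayed within 1.5 times the value reported and 37 did not. With library totals as the only scaling the count was 1 at 2 weeks, 3 over 1 to 3 weeks, 1 at 24 h of rechallenge, 7 at 24 h in all weeks and 7 for any group in YUMM2.1, and 0 at 2 weeks, 3 at 3 weeks, 5 over 1 to 3 weeks, 1 at 24 h of rechallenge and 10 at 24 h in all weeks in CT26. DESeq2 called 2 over 1 to 3 weeks in YUMM2.1 and 1 in CT26. Upper-quartile factors gave 1 for any group in YUMM2.1. No filter on low counts, which tests more genes, gave 1 for any group in YUMM2.1, 0 at 2 weeks and 1 at 24 h in all weeks in CT26. Fits of the compared groups alone gave 1 call in the control cultures of each line, and leaving out samples of low depth gave 1 over 1 to 3 weeks in CT26. A minimum log2 fold change of 0.5 left 0 at 24 h in all weeks in both lines, 0 at 2 weeks in CT26 and 9 line differences. The causes of these changes were not tested.

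Leaving out 1 replicate number gave 0 to 2 members at 2 h of rechallenge, 1 to 3 at 24 h in all weeks and 0 to 4 for any group in YUMM2.1, and in CT26 0 to 0 at 2 weeks, 0 to 1 over 1 to 3 weeks, 0 to 2 at 2 h of rechallenge, 1 to 3 at 24 h in all weeks and 1 to 9 for any group. Reversed signs were those of Psmd3 at naive 2 h in CT26 without replicate 3 (0.13), at 3 weeks in CT26 without replicate 2 (-0.13) and in the line difference at naive 24 h without replicate 3 (-0.16), against -0.58, 0.86 and 0.91, in that order, without another replicate, of Psmd1 at 24 h of rechallenge in CT26 without replicate 2 (0.021, against -0.21 without replicate 1) and of Psmb2 between lines with library totals (0.040). None of these 5 had passed the test except Psmb2. Of 746 single-member values, 691 kept their direction and side of the threshold, 47 lost a call and 3 gained one. Counts over all genes moved too: without replicate 1, the test of any group called 322 in YUMM2.1 (1369 with all samples) and 397 in CT26 (1432). The replicate number as a block changed no count of members, with 1 at 2 weeks in CT26 and 20 line differences as before, and 13 of 45 samples in YUMM2.1 and 21 of 45 in CT26 correlated best with their own number. DESeq2 and the minimum fold change were not run for the test of any group.

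Depth limits these results for Psmd3, with 2 to 43 counts per sample. For a single pair of groups the members' 95% intervals reached a median of about 0.25 (log2) on either side, and smaller changes could pass unseen. Groups of 3 samples and IFNγ comparisons that share controls also limit them.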
